A study of Mus musculus with 2 samples.

Results

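The CXC chemokines with UMIs in tumor-infiltrating immune cells are described here through 7 genes, *Cxcl1*, *Cxcl2*, *Cxcl3*, *Ppbp*, *Cxcl9*, *Cxcl10* and *Cxcl16*, chosen by name from the 17232 genes of the deposited table. The study compared *Maoa* WT mice with *Maoa* KO mice, which carry the hypomorphic *Maoa* tm1Shih allele of a 129S line backcrossed to C57BL/6J, in every cell of the animal and not in 1 cell type. Mice were female and 8 to 12 weeks old unless the methods say otherwise. They bore B16-OVA tumors, a single line of mouse melanoma that carries the model antigen ovalbumin. Immune cells (DAPI-CD45.2+) were sorted at day 14 from 10 pooled tumors of each genotype, 10000 cells were loaded, and 1 scRNAseq library was made per genotype. With 1 library for each genotype no test between genotypes was possible, and every 95% interval below covers counting error only.

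Chemokines are small secreted proteins that guide leukocytes along a gradient by binding receptors on their surface. *Cxcl1*, *Cxcl2*, *Cxcl3* and the processed product of *Ppbp* (Cxcl7) carry the ELR motif before the CXC cysteines, bind *Cxcr2* and draw in neutrophils. *Cxcl9* and *Cxcl10* lack that motif, are induced by interferons and draw in activated T cells and NK cells through *Cxcr3*. *Cxcl16* is made as a membrane protein, is shed by the proteases *Adam10* and *Adam17*, and binds *Cxcr6* on activated and tissue-resident T cells. In tumors, macrophages, monocytes and DCs are known sources of these ligands.

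The 4 ELR ligands lie together on chromosome 5 of GRCm38 (GENCODE M21), with *Ppbp* at 90768518 to 90770063, *Cxcl3* at 90786103 to 90789600, *Cxcl1* at 90891241 to 90893115 and *Cxcl2* at 90903871 to 90905938, all on the plus strand within 137 kb. *Cxcl9* (92321347 to 92328079) and *Cxcl10* (92346638 to 92348889) lie 1415 kb further along on the minus strand and span 27.5 kb. *Cxcl16* lies on chromosome 11 from 70453983 to 70459984, on the minus strand. All 7 are annotated as protein-coding genes.

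The sequences just upstream of 3 ELR ligands share a run of letters that the other promoters do not hold, and they are shown for that reason beside those of *Ppbp*, *Cxcl9* and *Cxcl10*. Promoter sequences were taken from RefSeq (GRCm38.p6), where 6 of the 7 genes matched an entry and *Cxcl16* had none. Starts here and below are those of RefSeq, which differ from the gene starts given above for *Cxcl1*, *Cxcl2* and *Cxcl3*. Of the 250 bases before each start, bases -120 to -41 are printed, and bases -220 to -41 for *Cxcl10*, from 5′ to 3′ on the strand of the gene. Capitals mark matches to an NF-kB consensus or to a GAAA repeat (2 copies of GAAA with 2 bases between them, a core of elements bound by interferon-regulatory factors), searched on both strands.
*Cxcl1* (chr5:90891125-90891204, plus strand): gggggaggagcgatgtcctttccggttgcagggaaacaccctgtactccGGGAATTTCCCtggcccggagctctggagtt
*Cxcl2* (chr5:90903779-90903858, plus strand): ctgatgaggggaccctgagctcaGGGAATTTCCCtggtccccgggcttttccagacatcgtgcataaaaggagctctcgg
*Cxcl3* (chr5:90785981-90786060, plus strand): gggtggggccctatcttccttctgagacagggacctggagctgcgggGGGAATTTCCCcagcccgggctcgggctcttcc
*Ppbp* (chr5:90768398-90768477, plus strand): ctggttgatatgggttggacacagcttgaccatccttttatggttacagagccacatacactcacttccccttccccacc
*Cxcl9* (chr5:92328120-92328199, minus strand): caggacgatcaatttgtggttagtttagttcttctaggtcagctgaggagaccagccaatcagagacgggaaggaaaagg
*Cxcl10* (chr5:92348930-92349109, minus strand): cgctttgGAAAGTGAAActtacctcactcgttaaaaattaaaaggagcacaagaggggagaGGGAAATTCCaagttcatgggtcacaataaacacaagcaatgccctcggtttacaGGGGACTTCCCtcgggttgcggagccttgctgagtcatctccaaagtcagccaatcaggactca

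The longest run that the promoters of *Cxcl1*, *Cxcl2* and *Cxcl3* share on their own strand is GGGAATTTCCC, which begins 71 bases before the start of *Cxcl1*, 97 before *Cxcl2* and 73 before *Cxcl3*. It occurred, on either strand, in 14 of 32851 promoter windows of the same length (0.0426%). The run was picked from these 3 promoters, which are among those windows, so this share does not measure how unusual their sharing is. The NF-kB consensus, which this run also matches, occurred in 7.25% of windows, with 2 overlapping matches in each of these 3 promoters. That of *Cxcl10* had 3 matches, of which 2 overlap. The GAAA repeat was found 213 bases before the start of *Cxcl10* and in 2.98% of windows. TTCNNNGAA, a STAT-type element, occurred in 7.02% of windows and in none of the 6 promoters, and neither these motifs nor the shared run occurred in the window of *Ppbp* or *Cxcl9*. A match describes these letters only.

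There were 2392 cells and 28801253 UMIs (unique molecular identifiers, each standing for 1 RNA molecule) in the WT-labelled library, and 2630 cells and 23702018 UMIs in the library labelled KO. Median depth was lower in the second library (6945.5 against 9887.5 UMIs per cell), so shares of cells with a UMI are also given after thinning every cell to 2900 UMIs. The targeted gene was too sparse to check the labels in either direction: *Maoa* had 7 UMIs in the WT-labelled library and 15 in the library labelled KO, and the counting interval of the log2 of KO over WT included 0 (1.33, -0.001 to 2.92). The libraries are named by their labels, and each direction rests on those labels. Barcode sequences occurred in both libraries in 13 cases. Leaving out those cells moved none of the 7 ratios in mononuclear phagocytes (defined below) out of its interval, and other ratios were not recomputed.

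Clusters built without the 7 genes gave 1109 (labelled WT) and 1153 (labelled KO) mononuclear phagocytes (macrophages, monocytes and DCs without plasmacytoid DCs). Within them, classes were named from marker lists as C1q macrophage-like, classical and nonclassical monocyte-like, MHC class II-high monocyte-derived cell-like, and *Cd209a*, type 1 conventional and mature DC-like cells. Another cluster is called by its leading genes, the stress genes *Hspa1a* and *Hspa1b* (101 and 104 cells). A further 2 clusters held markers of T cells as well and are called mixed by their leading genes, *Gzmb* (64 and 32 cells) and *Ikzf2* (19 and 39). T, NK and B cell-like cells and a cluster led by *Klra6* made up the lymphoid cells (1235 and 1407).

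**Figure D1:**
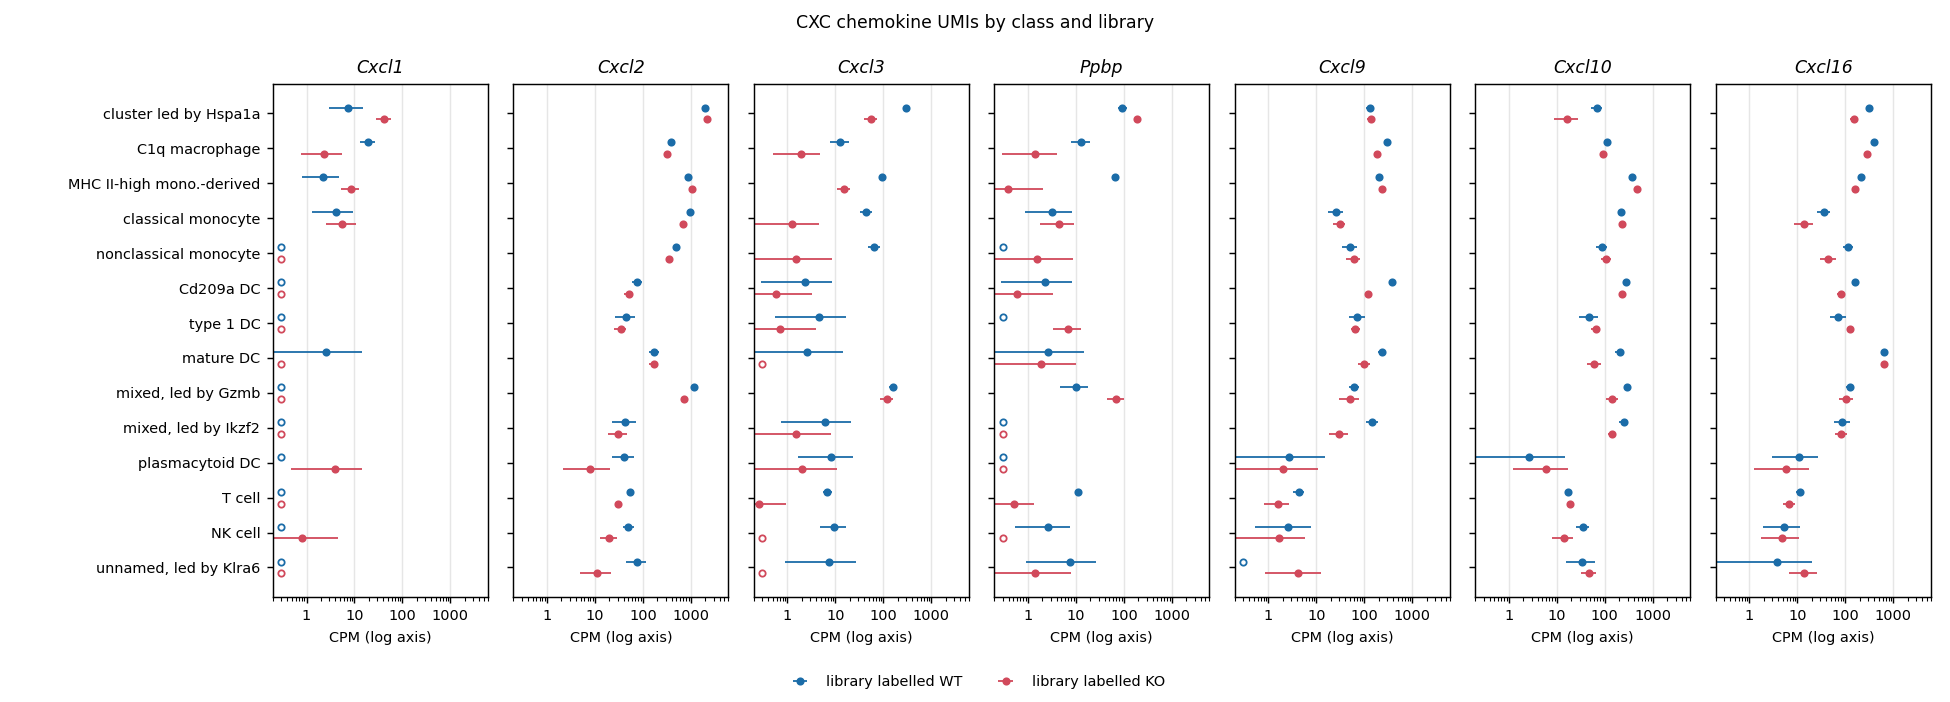
Level of each chemokine in the classes described (CPM, the UMIs of the gene per 1000000 UMIs of the same cells, log axis) in the WT-labelled library (blue) and the library labelled KO (red). Lines are exact 95% Poisson intervals, cut at the left edge, and open circles at the left mark 0 UMIs. Among the classes shown *Cxcl2* is highest in the *Hspa1a*-led cells and *Cxcl16* in mature DC-like cells, and T cell-like cells lie far below both.

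All 7 transcripts lay mainly in mononuclear phagocytes. These cells held between 89.3% (*Ppbp*) and 100% (*Cxcl1*) of the UMIs of a gene in the WT-labelled library, and between 93.2% (*Cxcl10*) and 99.4% (*Cxcl3*) in the library labelled KO, while making up 46.4% and 43.8% of the cells. The *Hspa1a*-led cells held 9.63% and 19.3% of *Cxcl2* UMIs, 5.44% and 8.56% of *Cxcl3* UMIs and 6.45% and 53.7% of *Ppbp* UMIs (labelled WT and KO), as 4.22% and 3.95% of the cells. Of their 153 *Ppbp* UMIs labelled KO a single cell held 141. Of the interferon-induced ligands, MHC class II-high cells held 24.6% and 37.3% of *Cxcl9* UMIs and 22.9% and 42.99% of *Cxcl10* UMIs (labelled WT and KO).

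*Cxcl2*, an early neutrophil attractant of activated macrophages, had a UMI in 76.4% (labelled WT) and 51.4% (labelled KO) of mononuclear phagocytes (57.3% and 35.4% after thinning). Its level in these cells was 1379.8 CPM (1360.4 to 1399) in the WT-labelled library and 661 CPM (647 to 675) in the library labelled KO, which gives -1.06 (-1.10 to -1.03) as the log2 of KO over WT, the direction of every ratio here. Within each class of mononuclear phagocytes described here the ratio was closer to 0. In the *Hspa1a*-led cells *Cxcl2* stood at 1992 and 2216 CPM, a ratio of 0.15 (0.06 to 0.25) on the log2 scale, and a single cell labelled KO held 457 of the 1759 UMIs. MHC class II-high cells were higher in the library labelled KO, at 1058 against 861 CPM (0.30, 0.22 to 0.38). Classical monocyte-like cells were lower, at 676 against 953 CPM (-0.49, -0.61 to -0.37), as were nonclassical ones, at 356 against 491 CPM (-0.46). With classes weighted to 1 mix for both libraries, each by its share of all mononuclear phagocytes, the pooled ratio was -0.26.

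The DC-like classes held little *Cxcl2*. *Cd209a* DC-like cells had 76.6 and 50.4 CPM, type 1 conventional DC-like cells 44.1 and 34.2 CPM, and mature DC-like cells 169.6 and 167 CPM. T cell-like cells, which should lack the gene, had 52.6 and 30.1 CPM, with a UMI in 39.2% and 13.8% of cells at median depths of 10524 and 5067.5 UMIs, or 12.8% and 5.57% after thinning. The thinned shares were 10.8% and 7.53% in *Cd209a* DC-like cells and 8.696% and 9.302% in type 1 conventional DC-like cells. In CPM the *Cd209a* DC-like cells (59.2 to 97.5 and 40.3 to 62.2) lay above the T cell-like cells (48.7 to 56.7 and 26.4 to 34.3) in both libraries, while the intervals of type 1 conventional DC-like cells (26.5 to 68.8 and 25.3 to 45.2) overlapped those of T cell-like cells. The *Hspa1a*-led cells reached 62.4% and 41.3%.

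*Cxcl3*, a close relative of *Cxcl2* that acts on the same receptor, had the lowest ratio of the 7 genes. Mononuclear phagocytes held 5285 UMIs in the WT-labelled library, or 377 CPM (367 to 387), and 511 UMIs in the library labelled KO, or 38.1 CPM (34.9 to 41.5). The log2 ratio was -3.31 (-3.44 to -3.18), and 22.8% and 3.82% of the cells had a UMI (15.1% and 2.25% after thinning). The 20 highest of 253 positive cells labelled WT and the 3 highest of 44 labelled KO held at least as many of these UMIs as the rest together, and the highest cells had 399 and 129 UMIs. Without the 1% of cells with the most *Cxcl3* UMIs in each library the log2 ratio was -5.60. The cells left out were chosen by this gene's own UMIs and made up more of the 44 positive cells than of the 253. With classes weighted to 1 mix the log2 ratio was -1.57.

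The level of *Cxcl3* was lower in the library labelled KO in each of 5 macrophage and monocyte classes. The *Hspa1a*-led cells had 301 and 55.4 CPM (-2.43, -2.93 to -1.98), and MHC class II-high cells 94.2 and 15.1 CPM (-2.63, -3.16 to -2.16), with 137 of the 254 UMIs labelled WT in a single cell. Classical monocyte-like cells had 54 and 2 UMIs, nonclassical ones 44 and 1, and C1q macrophage-like cells 21 and 4. In the mixed *Gzmb*-led cluster the interval included 0 (-0.40, -0.92 to 0.08). The 3 DC-like classes had at most 2 UMIs of *Cxcl3* in either library, so no ratio is given. *Cxcl3* UMIs were also found in 66 of 991 T cell-like cells labelled WT (6.66%, 5.19 to 8.396%) and in 2 of 970 labelled KO (0.206%, 0.0250 to 0.743%), or 1.21% and 0.103% after thinning.

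The summed level of neutrophil markers in mononuclear phagocytes was lower in the library labelled KO, as were *Cxcl2*, *Cxcl3* and *Ppbp*. All 11 listed neutrophil markers were detected in mononuclear phagocytes of both libraries, with a summed level of 529 CPM labelled WT and 147 CPM labelled KO, led by *S100a8*. In T cell-like cells the sums were 231 and 46.1 CPM, and in the *Klra6*-led cluster, where *Mmp9* led in the library labelled KO, 216 and 346 CPM. The log2 ratios without cells holding 5 or more UMIs of *S100a8* and *S100a9* were -1.05 for *Cxcl2*, -3.32 for *Cxcl3* and -2.24 for *Ppbp*. Any part of the remaining neutrophil RNA in these ratios was not tested.

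*Cxcl1*, the third ELR ligand of this kind, was sparse. Mononuclear phagocytes held 96 UMIs in 33 cells labelled WT (6.85 CPM, 5.55 to 8.36) and 101 UMIs in 20 cells labelled KO (7.53 CPM, 6.13 to 9.15), and the interval of the log2 ratio included 0 (0.14, -0.28 to 0.56). In the library labelled WT, C1q macrophage-like cells had the highest level, 18.8 CPM (12.8 to 26.7), with an interval that overlapped that of the *Hspa1a*-led cells (7.20 CPM, 2.89 to 14.8). In the KO-labelled library the *Hspa1a*-led cells had 41.6 CPM (28.6 to 58.4) and C1q macrophage-like cells had 2.35 CPM (0.762 to 5.48). A single cell held 31 of the 33 UMIs in the *Hspa1a*-led cells labelled KO, and another 15 of 31 in the C1q macrophage-like cells labelled WT. Without the 1% of cells with the most *Cxcl1* UMIs in each library the log2 ratio was -1.64, and with classes weighted to 1 mix it was 1.29. T cell-like cells had 0 *Cxcl1* UMIs in both libraries, which allows a level of up to 0.232 and 0.388 CPM by the rule of 3 counts of the total, a one-sided limit. The exact two-sided Poisson intervals, used for the other levels, reach 0.285 and 0.477 CPM.

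*Ppbp*, best known from platelets, was found in few cells at high counts. Mononuclear phagocytes held 1246 UMIs in 67 cells labelled WT (88.9 CPM, 83.99 to 93.9) and 280 UMIs in 26 cells labelled KO (20.9 CPM, 18.5 to 23.5), a log2 ratio of -2.09 (-2.28 to -1.90). Single cells held up to 256 and 141 of these UMIs, 20.5% and 50.4% of the total. Leaving out the top cell of each library gave -2.76, leaving out the top 1% gave -3.48, and weighting classes to 1 mix gave -0.83. The *Hspa1a*-led cells had 92.5 and 193 CPM (1.06, 0.67 to 1.45), but 1 cell in each library held 88 of 90 and 141 of 153 UMIs. In MHC class II-high cells 157 of 179 UMIs labelled WT came from 1 cell, against 1 UMI labelled KO (-6.88, -12.77 to -4.96). A T cell-like cell labelled WT held 117 of the 145 UMIs of its class.

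Of 10 listed platelet markers 7 were in the table, and they summed to 27 UMIs in mononuclear phagocytes labelled WT and 47 in those labelled KO (1.93 and 3.504 CPM). *Clec1b*, a platelet receptor that some myeloid cells also express, held 20 and 22 of them. *Pf4*, the neighbouring platelet chemokine that macrophages also express, had 722 and 501 CPM in mononuclear phagocytes (-0.53, -0.57 to -0.48). Within classes its ratio took both directions. Classical monocyte-like cells had 297 and 15.6 CPM (-4.22, -4.90 to -3.67) and MHC class II-high cells 361 and 95.5 CPM (-1.92, -2.12 to -1.72), both lower in the library labelled KO. Nonclassical monocyte-like cells had 52.95 and 97.8 CPM (0.88, 0.27 to 1.52) and the mixed *Gzmb*-led cluster 192 and 600.4 CPM (1.64, 1.36 to 1.93), both higher, and the difference between classes was not tested. Its level was highest in C1q macrophage-like cells (1679 and 2085 CPM, with a log2 ratio of 0.31, 0.24 to 0.38) among the classes described, and there *Ppbp* had only 21 and 3 UMIs.

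*Cxcl9*, a *Cxcr3* ligand induced by interferon gamma, had 154 CPM (148 to 161) in mononuclear phagocytes labelled WT and 123 CPM (117 to 129) in those labelled KO, a log2 ratio of -0.33 (-0.42 to -0.23). A UMI was found in 23.8% and 18.1% of the cells (13.6% and 11.4% after thinning). In the library labelled WT the level was highest in *Cd209a* DC-like cells (382 CPM, 342 to 425), followed by C1q macrophage-like (295, 269 to 322) and mature DC-like cells (235, 189 to 289), which overlapped each other but not the first. A single C1q macrophage-like cell held 100 of the 486 UMIs of its class in that library. In the library labelled KO, MHC class II-high cells stood first (235 CPM, 217 to 254), ahead of C1q macrophage-like (185, 167 to 204) and *Hspa1a*-led cells (136, 112 to 164). Between libraries, *Cd209a* DC-like cells had a log2 ratio of -1.68 (-1.94 to -1.43), mature DC-like cells -1.24 (-1.76 to -0.74) and C1q macrophage-like cells -0.67 (-0.87 to -0.48). MHC class II-high cells had 203 and 235 CPM, a ratio of 0.21 (0.04 to 0.38), and a single cell held 65 of their 622 UMIs labelled KO. Classical monocyte-like cells were low at 25.9 and 30.6 CPM, and T cell-like cells had 4.33 and 1.55 CPM, with a UMI in 1.21% and 0.412% of the thinned cells.

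*Cxcl10*, the second *Cxcr3* ligand, had 287 CPM (278 to 296) labelled WT and 203 CPM (195 to 211) labelled KO in mononuclear phagocytes, a log2 ratio of -0.50 (-0.57 to -0.43). Among the classes described MHC class II-high cells had the highest level in both libraries, 366 CPM (343 to 389) labelled WT and 474 CPM (448 to 500.5) labelled KO, a ratio of 0.37 (0.25 to 0.49). A single cell there held 176 of the 1255 UMIs labelled KO. The *Hspa1a*-led cells had only 66 and 13 UMIs (67.8 and 16.4 CPM, -2.01, -3.03 to -1.18). *Cd209a* DC-like cells stood at 283 and 231 CPM (-0.29, -0.53 to -0.06) and C1q macrophage-like cells at 113 and 90.6 CPM (-0.33, -0.62 to -0.03). Mature DC-like cells had 79 UMIs in 29 cells and 33 in 46 (-1.75, -2.40 to -1.16). For classical monocyte-like (218 and 227 CPM) and nonclassical monocyte-like cells (86.8 and 105 CPM) the interval of the ratio included 0 (0.06 and 0.28). The share of cells with a UMI was 32.1% and 25.1% (18.4% and 14.9% after thinning), against 12.8% and 7.42% of T cell-like cells (4.54% and 4.12%).

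*Cxcl16*, the membrane-anchored ligand of *Cxcr6*, had its highest level in mature DC-like cells, which carry antigen to T cells. These cells had 649.6 CPM (571 to 735) labelled WT and 644 CPM (579 to 715) labelled KO, a log2 ratio of -0.01 (-0.25 to 0.23), and 82.8% and 93.5% of them had a UMI. C1q macrophage-like cells came second, at 397 CPM (368 to 429) and 291 CPM (269 to 315). Classical monocyte-like cells were lowest among the macrophage, monocyte and DC classes other than plasmacytoid DC-like cells, at 35.6 and 13.7 CPM. Over all mononuclear phagocytes the levels were 227 CPM (219.6 to 235) and 163 CPM (156 to 170.0), a log2 ratio of -0.48 (-0.56 to -0.40). Ratios were below 0 in *Hspa1a*-led (-0.98, -1.30 to -0.68), nonclassical monocyte-like (-1.36, -2.04 to -0.74) and *Cd209a* DC-like cells (-1.03, -1.38 to -0.68). Type 1 conventional DC-like cells went the other way, with 71.9 CPM in 23 cells labelled WT and 126 CPM in 86 labelled KO (0.79, 0.25 to 1.40). These DC-like cells combine 2 clusters, one of them led by cell cycle genes such as *Nusap1*. The T cell-like cells had 11.2 and 6.86 CPM and a UMI in 1.92% and 2.16% of thinned cells, against 58.6% and 69.6% of mature DC-like cells.

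The 2 mixed clusters differed from each other. The *Gzmb*-led cells held *Cxcl2* at 1181 and 716 CPM (-0.72, -0.92 to -0.53) and *Cxcl3* at 157 and 118 CPM, close to the monocyte-like classes or above them, and *Cxcl10* at 294 and 142 CPM (-1.04, -1.502 to -0.63). The *Ikzf2*-led cells held little *Cxcl2* (41.9 and 30.96 CPM) but *Cxcl9* at 147 and 29.5 CPM (-2.29, -3.14 to -1.54) and *Cxcl10* at 249 and 142 CPM (-0.81, -1.25 to -0.37). Both hold T cell markers, and free RNA and doublets in them were not tested.

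Plasmacytoid DC-like and NK cell-like cells held few UMIs of any of the 7 genes. Plasmacytoid DC-like cells, 48 and 70 in number, had at most 15 UMIs of a gene (*Cxcl2*, labelled WT), and 1 and 3 of *Cxcl10*. NK cell-like cells had 50.03 and 19.5 CPM of *Cxcl2* and 35.4 and 13.8 CPM of *Cxcl10*, and the *Klra6*-led cluster had 33.5 and 46.02 CPM of *Cxcl10*.

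**Figure D2:**
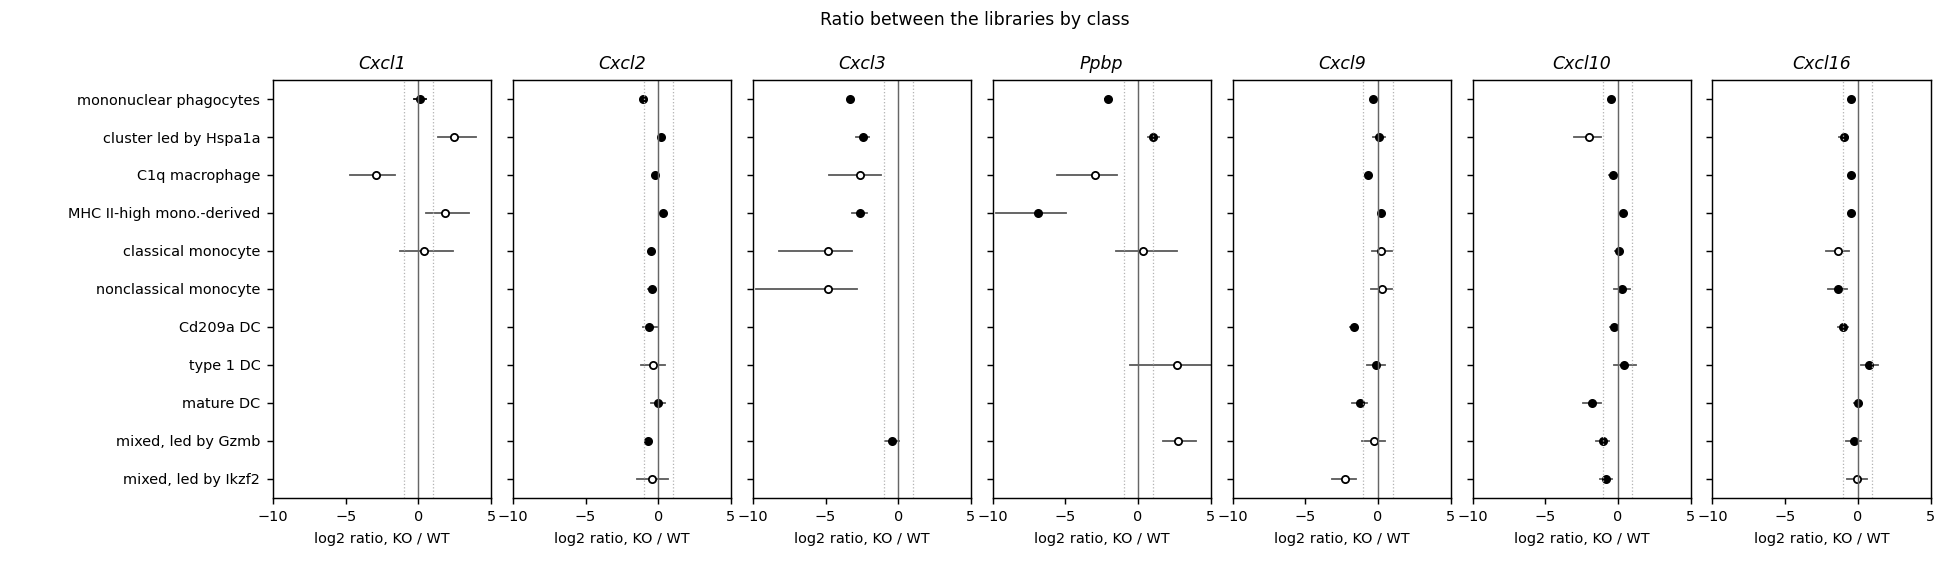
Log2 of KO over WT (horizontal axis) for each chemokine in all mononuclear phagocytes (top row) and in 10 of their clusters and classes. Points are ratios with 95% counting intervals cut at the panel edge, filled where both libraries together held at least 100 UMIs, dotted lines mark a 2-fold difference, and classes with 3 or fewer UMIs in each library are left out. *Cxcl3* lies left of 0 in every class shown, while *Cxcl2*, *Cxcl9* and *Cxcl10* lie right of 0 in MHC class II-high cells.

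Read across the 7 genes, *Cxcl2*, *Cxcl3* and *Ppbp* were 2-fold or more lower in mononuclear phagocytes of the library labelled KO and none was 2-fold or more higher. Among all 9031 genes with at least 100 UMIs in these cells, 1.96% were that much lower and 1.1% that much higher (3.06% in either direction). The median log2 ratio of the 7 genes was -0.50. With classes weighted to 1 mix only *Cxcl3* stayed 2-fold or more lower (-1.57), while *Cxcl2* (-0.26) and *Ppbp* (-0.83) did not, and *Cxcl1* was more than 2-fold higher (1.29). As a mean over cells *Cxcl2* was at -0.99, just short of 2-fold. Melanoma markers summed to 42.3 and 22.2 CPM in mononuclear phagocytes, and their part in the result was not tested. Without the 2 mixed clusters the log2 ratios were -1.04 for *Cxcl2*, -3.42 for *Cxcl3* and -2.24 for *Ppbp*.

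**Figure D3:**
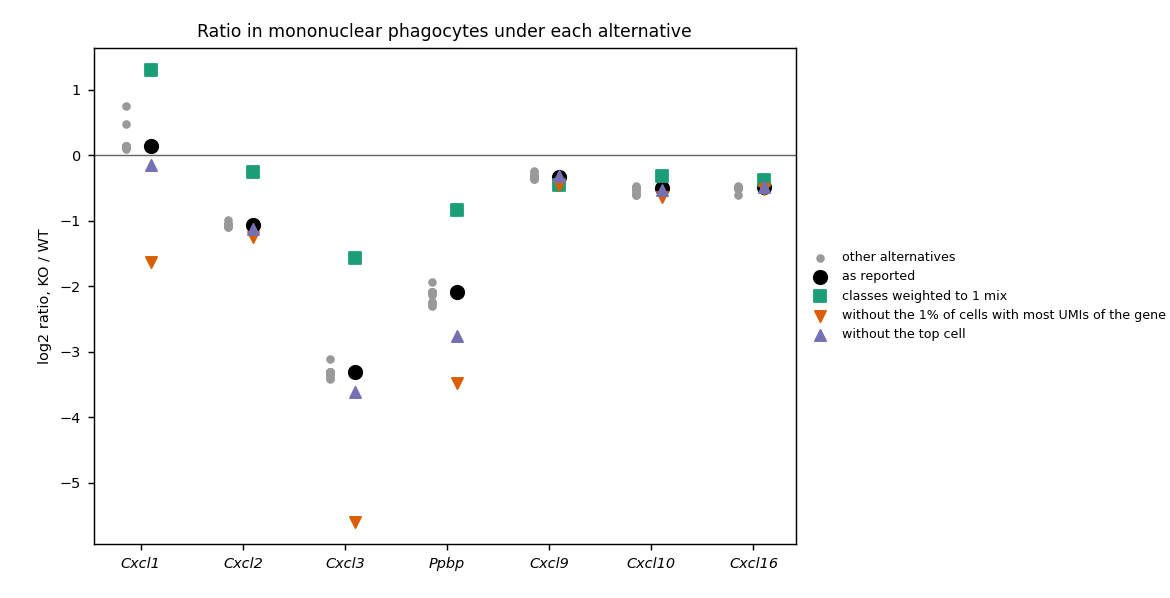
Log2 of KO over WT, by library label, in mononuclear phagocytes (vertical axis) for each chemokine as reported (black) and under each alternative. Weighting classes to 1 mix for both libraries (green squares) moves *Cxcl2* from -1.06 to -0.26 and *Cxcl3* from -3.31 to -1.57, and leaving out the top 1% of cells (orange) moves *Cxcl3* to -5.60 and *Cxcl1* to -1.64.

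The ELR ligands and the *Cxcr3* ligands were also compared cell by cell. After thinning, 41.7% of mononuclear phagocytes labelled WT had a UMI of *Cxcl1*, *Cxcl2* or *Cxcl3* but of neither *Cxcl9* nor *Cxcl10*, 11.4% the reverse, 16.8% had both and 30.1% had none. In the KO-labelled library these shares were 27.1%, 14.1%, 8.76% and 50.04%. Classical monocyte-like cells were mostly of the first kind where they had any (44.2% and 31.6% of the class), and *Cd209a* DC-like cells with any of these ligands mostly of the second (26.2% and 20.5% of the class). In MHC class II-high cells 23.98% and 20.3% had both.

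**Figure D4:**
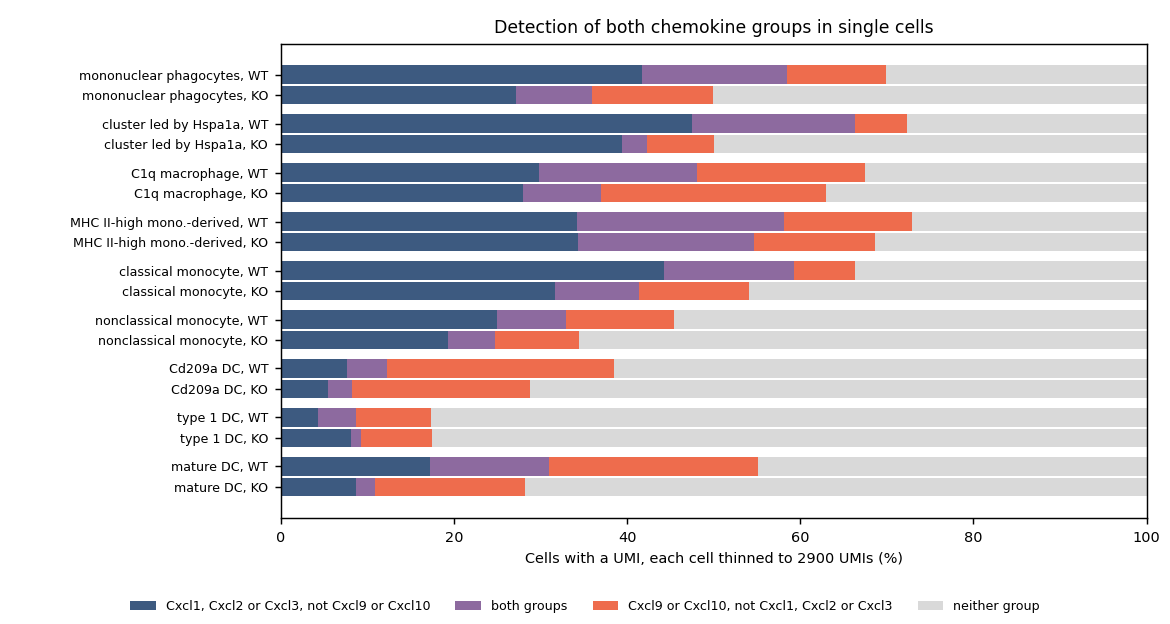
Percent of cells (horizontal axis) of all mononuclear phagocytes and of 8 classes with a UMI of *Cxcl1*, *Cxcl2* or *Cxcl3* only, of both groups, of *Cxcl9* or *Cxcl10* only, or of neither, in the WT-labelled library and the library labelled KO, each cell thinned to 2900 UMIs. Classical monocyte-like cells with a ligand are mostly dark blue (44.2% and 31.6% of the class), and among *Cd209a* DC-like cells orange (26.2% and 20.5%) exceeds dark blue.

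Of mononuclear phagocytes labelled WT, 24.5% of the 636 cells with a *Cxcl2* UMI (21.2 to 28.1%) and 2.33% of the 473 without one (1.17 to 4.12%) also had a *Cxcl3* UMI after thinning. Over these cells the Pearson correlation of log values was 0.52 for *Cxcl2* with *Cxcl3*, 0.39 for *Ppbp* with *Cxcl3* and -0.14 for *Cxcl9* with *Cxcl2*, all from 1 library. In MHC class II-high cells it was 0.33 (labelled WT, 196 cells) and 0.27 (labelled KO, 236 cells) for *Cxcl9* with *Cxcl10*. Cells with a *Cxcl10* UMI there held a *Cxcl9* UMI in 29.4% and 35.2% of cases, against 17.2% and 14.8% of the cells without one.

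The receptors *Cxcr3* and *Cxcr6* were higher in T cell-like cells than in mononuclear phagocytes in both libraries. *Cxcr3*, which binds *Cxcl9* and *Cxcl10*, had 58.96 and 88.1 CPM in T cell-like cells, 64.7 and 95.1 CPM in NK cell-like cells and 11.2 and 14.1 CPM in mononuclear phagocytes (labelled WT and KO). Over lymphoid cells its log2 ratio was 0.57 (0.43 to 0.70). *Cxcr6*, which binds *Cxcl16*, had 281 and 230.4 CPM in T cell-like cells and 10.3 and 9.32 CPM in mononuclear phagocytes, with a ratio of -0.37 (-0.45 to -0.29) over lymphoid cells. In NK cell-like cells *Cxcr6* went the other way, with 31 UMIs (26.7 CPM) labelled WT and 76 UMIs (61.8 CPM) labelled KO (1.19, 0.59 to 1.86). *Cxcr4*, the receptor of *Cxcl12*, had 47.6 and 16.03 CPM in mononuclear phagocytes (-1.57, -1.80 to -1.35). *Cxcr2*, the receptor of the ELR ligands, had 73 UMIs over all cells of both libraries, *Cxcr5* 70, *Cxcr1* and *Ackr3* 5 each, and *Ackr1* 4.

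Other CXC ligands apart from *Pf4* were near or below detection, with 97 UMIs of *Cxcl13*, 55 of *Cxcl14*, 4 of *Cxcl5* and 1 of *Cxcl12* over both libraries. *Cxcl11*, *Cxcl15* and *Cxcl17* were not among the genes of the deposited table. Of the enzymes that act on these ligands, *Adam10* had 26.9 and 23.3 CPM in mononuclear phagocytes (-0.20, -0.43 to 0.02) and *Adam17* 48.1 and 35.9 CPM (-0.42, -0.59 to -0.25). *Dpp4*, which trims *Cxcl9* and *Cxcl10*, had 12.2 and 21.1 CPM (0.79, 0.51 to 1.07), with 75.4 and 56.2 CPM in *Cd209a* DC-like cells.

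Over mononuclear phagocytes pooled, genes of the interferon pathway, which induces *Cxcl9* and *Cxcl10*, lay mostly below 0 on this log2 scale. Class shares differed between libraries, and for the listed genes no ratio within classes or with classes weighted to 1 mix is given. Of 18 listed interferon genes 17 had at least 100 UMIs in mononuclear phagocytes, of which 7 were 2-fold or more lower and 0 higher, against 1.96% lower and 1.1% higher among all genes, with a median log2 ratio of -0.81. The lowest were *Nos2*, the inducible nitric oxide synthase (-3.12, -3.58 to -2.71), and the antiviral gene *Rsad2* (-1.80, -1.90 to -1.70), and the highest were the receptor chains *Ifngr2* (0.05, -0.05 to 0.15) and *Ifngr1* (0.70, 0.62 to 0.77). Of 17 listed NF-kB pathway genes 16 had that many UMIs, of which 1 was 2-fold or more lower and 0 higher (against the same 1.96% and 1.1%), with a median of -0.08. *Il1a* (-2.16, -2.73 to -1.66) and the C-type lectin receptor *Clec4e* (-0.91, -0.995 to -0.82) were lowest, and *Il1b* (0.28, 0.23 to 0.34) and *Nfkb1* (0.48, 0.36 to 0.60) highest. Over all mononuclear phagocytes pooled, the inflammatory cytokine gene *Il1b* was higher in the library labelled KO, while *Cxcl2* and *Cxcl3* were lower. In MHC class II-high cells *Cxcl2* was higher (0.30), and opposite directions of these genes within a class were not tested.

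Over 22 points (13 classes by library with at least 50 cells, which share 2 libraries), genes were ranked by the Pearson correlation of their log2(CPM + 1) with each chemokine among 10487 genes. The 3 most like *Cxcl2* were the myeloid genes *Clec4d* (0.97), *Ccl9* (0.97) and *Cd14* (0.97). *Irg1* (0.92) and *Slc7a2* (0.91) were among those for *Cxcl3*, and those for *Ppbp* were *Inhba* (0.89), *Nos2* (0.85) and *Gpi1* (0.85). *Cxcl9* was most like *Snx8* (0.95), *Cysltr1* (0.95) and *Cxcl16* (0.93), and *Cxcl16* most like *Sh3pxd2b* (0.94), *Basp1* (0.93) and *Snx8* (0.93). *Cxcl10* stood with the interferon-response genes *Oas1a* (0.91), *Batf2* (0.90) and *Parp12* (0.89). For the sparse *Cxcl1* they were *Med21* (0.85), *Atp6v1c1* (0.83) and *Gadd45a* (0.82). Among the 7 genes themselves the highest correlations were *Cxcl9* with *Cxcl16* (0.93) and *Cxcl2* with *Cxcl3* (0.82), and the lowest was *Cxcl1* with *Cxcl10* (0.14).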

How the data were processed

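The authors aligned and counted Chromium 3′ V2 reads with Cell Ranger (build mm10 per the labels), aggregated both libraries and normalised them in Seurat. The deposited table, labelled as raw counts, holds natural log values, the log of 1 plus UMIs scaled to 10000 per cell. The design had assumed counts. Once the log was undone, 100% of nonzero values were whole UMIs to within 0.01, and all sums use these. Every cell passed the filter of the methods (300 UMIs, 100 genes, 5% mitochondrial). Clusters came from Seurat 5.3.0 in R 4.3.3 (593 variable genes without the 7 chemokines, depth regressed out, 13 PCs, resolution 0.8), and mononuclear phagocytes were clustered again (684 variable genes). A cluster took the class with most markers detected, needed at least 3, and stayed unnamed when its 10 leading genes held more markers of another class. No doublets were removed. Of the clusters and marker genes, 1 cluster of mononuclear phagocytes, whose cells stay in their sums, and 2 genes are not reported here.

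The chemokines and gene lists were chosen with earlier results of these data known. Chosen after seeing these clusters were the handling of the tie that left the *Klra6*-led cluster unnamed, the joining of 2 type 1 conventional DC-like clusters, the mixed clusters counted among mononuclear phagocytes and 2 alternatives (without the mixed clusters, without the top cell). Genes named are the 7 chemokines, the 3 genes most like each (2 for *Cxcl3*), listed receptors, ligands and enzymes with at least 100 UMIs, and the 2 highest and 2 lowest of the interferon and NF-kB lists. Genes below 100 UMIs were named after their counts were seen. Levels are CPM with exact Poisson intervals, shares have Clopper-Pearson intervals, and ratios have exact conditional binomial intervals with 0.5 UMIs added to the estimate. The ratio step was tested on simulated data. Cells are not replicates, so no p-value was computed. Python 3.11.15 with numpy 2.4.6 and scipy 1.17.1 was used.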

Additional observations from a re-analysis of the deposited data

Results flagged for a closer look

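Ratios of 5 chemokines lay on opposite sides of 0 in different classes, with counting intervals that left out 0 on each side. For each, the lowest and highest log2 of KO over WT (by library label) among classes with at least 100 UMIs is given, and the difference between classes was not tested. *Cxcl2* had -0.80 in T cell-like cells, which should lack the gene, and 0.30 in MHC class II-high monocyte-derived cell-like cells. Free RNA in the T cell-like cells was not tested. *Ppbp* had -6.88 (-12.77 to -4.96) in MHC class II-high cells, with 1 UMI labelled KO, and 1.06 in the *Hspa1a*-led cells, each resting mostly on 1 cell per library. *Cxcl9* had -1.68 in *Cd209a* DC-like cells and 0.21 in MHC class II-high cells, where 1 cell held 65 of the 622 UMIs labelled KO. *Cxcl10* had -1.75 in mature DC-like cells and 0.37 in MHC class II-high cells, where 1 cell held 176 of the 1255 UMIs labelled KO. Neither ratio was recomputed within the class without that cell. *Cxcl16* had -1.36 in nonclassical monocyte-like cells and 0.79 in type 1 conventional DC-like cells.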

How the results depend on the processing

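The 7 log2 ratios in mononuclear phagocytes were recomputed under 15 alternatives each, and outside the settings given next every value stayed within its counting interval. With classes weighted to 1 mix (each by its share of the pooled cells) the log2 ratio was 1.29 for *Cxcl1*, -0.26 for *Cxcl2*, -1.57 for *Cxcl3*, -0.83 for *Ppbp*, -0.46 for *Cxcl9*, -0.31 for *Cxcl10* and -0.38 for *Cxcl16*. Without the 1% of cells with the most UMIs of the gene the log2 ratio was -1.64 for *Cxcl1*, -1.25 for *Cxcl2*, -5.60 for *Cxcl3*, -3.48 for *Ppbp*, -0.45 for *Cxcl9* and -0.64 for *Cxcl10*. Without the top cell of each library the log2 ratio was -1.12 for *Cxcl2*, -3.61 for *Cxcl3* and -2.76 for *Ppbp*. As a mean over cells the log2 ratio was 0.74 for *Cxcl1*, -0.99 for *Cxcl2*, -3.11 for *Cxcl3* and -0.61 for *Cxcl16*. With a marker gate in place of clusters the log2 ratio was -2.31 for *Ppbp* and -0.62 for *Cxcl10*. Without cells holding T cell and myeloid UMIs the log2 ratio was -2.29 for *Ppbp* and -0.58 for *Cxcl10*. Without cells holding 5 or more *S100a8* and *S100a9* UMIs the log2 ratio was -0.61 for *Cxcl10*. Scaled by the median ratio over genes the log2 ratio was -1.11 for *Cxcl2*. The sign of a ratio changed for *Cxcl1* only, whose interval included 0. Thinned shares of mononuclear phagocytes with a UMI were (labelled WT and KO) 1.62% and 0.781% for *Cxcl1*, 57.3% and 35.4% for *Cxcl2*, 15.1% and 2.25% for *Cxcl3*, 3.16% and 1.13% for *Ppbp*, 13.6% and 11.4% for *Cxcl9*, 18.4% and 14.9% for *Cxcl10* and 33.7% and 23.3% for *Cxcl16*. Of the 21 genes most like the chemokines 14 were found again with a pseudocount of 10 CPM and 19 among genes with at least 500 UMIs. With at least 30 UMIs in place of 100, 4.70% of genes were past 2-fold. *Ppbp* and *Cxcl1* rest on few cells, and depth limits every statement on classes with under 50 cells. No paired analysis was possible because each genotype has 1 library and no test was made. In mononuclear phagocytes labelled WT and KO, the top 6 and 4 cells held at least as many *Cxcl1* UMIs as the rest. For *Cxcl3* these were 20 and 3 cells, for *Ppbp* 4 and 1 and for *Cxcl10* 26 and 19. The cause of the shifts was not tested.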
